A study of Mus musculus with 4 samples.

Results

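The matrix metalloproteinases Mmp2, Mmp3, Mmp9, Mmp11, Mmp13 and Mmp14 and the tissue inhibitors Timp1, Timp2 and Timp3 were followed across astrocyte cultures from 4 brain regions. These 9 genes, of 12393 on the arrays with a probe set naming a single gene, were found by their symbols in the platform annotation and were represented by 20 probe sets. The cultures came from CD-1 mice, an outbred stock, at postnatal day 3: the subventricular zone along the lateral ventricle, the ventral mesencephalon, the olfactory bulb and the hippocampus. Shaken, replated monolayers were kept in medium with 10% serum with no further treatment. These are called the subventricular zone, mesencephalon, bulb and hippocampus cultures below. Each region was measured on 1 array, hybridised with labelled RNA made from 2 ug of total RNA, so nothing below rests on replicates and no p-value is given. Tissue was pooled across littermates, and the design text gives both 4 and 3 as the number of pups.

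Matrix metalloproteinases are zinc-dependent enzymes, made as inactive precursors, that cut collagens, gelatins, laminins, proteoglycans and many cell-surface and signalling proteins. The tissue inhibitors, or TIMPs, bind the active site and hold these enzymes in check, so the balance between both groups sets how much matrix is turned over. In the brain, astrocytes, microglia, vascular cells and meningeal fibroblasts can all make them, and serum and inflammatory cytokines are known inducers of several members.

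The deposited values are signal intensities on a linear scale, comparable between arrays for the same probe set but not between probe sets. A floor of 122.1, the median over all probe sets and arrays, stood in for detection calls, and lower signals were raised to it before folds were taken, so a fold against a signal under the floor is given as "at least". To be called higher in a region, a gene had to be at least 2-fold above each of the other 3, and to be called lower, at least 2-fold below each. Of the 12393 genes, 7987 were above the floor on at least 1 array, and so were all 9 members. Probe sets of the same gene scattered by 0.16 on the log2 scale per array (median-based SD, 1977 genes). Neighbouring regions under 1.38-fold apart, which is 2 times the scatter of a difference between arrays, are described as not separated. This scatter is the disagreement between probe sets of a gene on the same arrays. It leaves out array or labelling effects that such probe sets share, and the spread between cultures. A gap past 1.38-fold is thus not shown to exceed those.

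The mesencephalon had the highest signal for 6 of the 9 members. Mmp3, Mmp13 and Timp1 were called higher there, 3 of 9 members, where 1.57% of all 7987 genes were. Mmp9 was called higher in the hippocampus (1 of 9, against 2.49% of all genes) and Mmp2 was called lower in the subventricular zone (1 of 9, against 1.01%). No member was called higher in the subventricular zone or the bulb, where 1.28% and 1.87% of all genes were. The members, and the gene lists used below, were chosen with earlier results of these data known. Their shares beside those of all genes therefore describe the chosen genes and are not a test. In bulk RNA of this kind, fewer cells of a type and less RNA per cell cannot be told apart. The calls depend on which regions are set against each other: without the bulb array, 5 members were called higher in the mesencephalon, with Mmp2 and Timp2 added. With fewer regions to exceed, any gene is called more easily, and the share of all genes called this way was not computed.

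**Figure D1:**
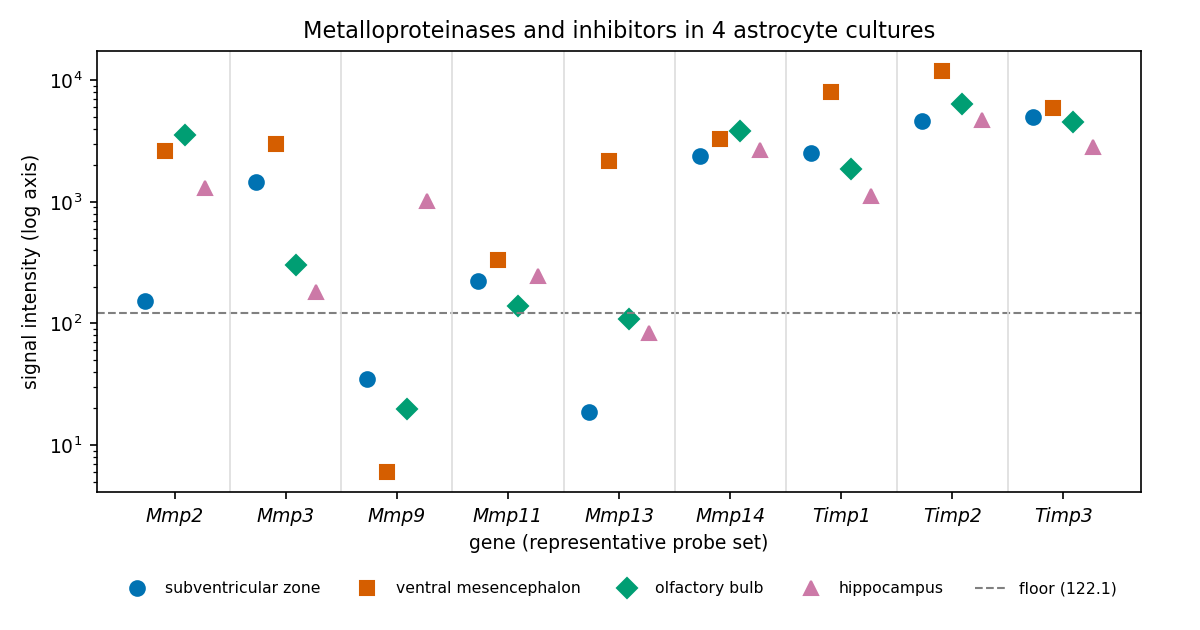
Signal intensity (log axis) of the 9 genes on the 4 arrays, 1 point per region and gene from the probe set with the highest mean, with the floor of 122.1 as a dashed line. The mesencephalon point is the highest for 6 genes, and Mmp2, Mmp3, Mmp9 and Mmp13 are spread much more widely than Mmp14 and Timp3.

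The mesencephalon had the highest signal of the 4 for 6 of the 9 genes (Mmp3, Mmp11, Mmp13, Timp1, Timp2 and Timp3), where it did so for 20% of all genes. For Mmp11 (1.35-fold) and Timp3 (1.19-fold) it was not separated from the next region. Over the 9 members, the median log2 difference from the mean of the other 3 regions was 1.21 in the mesencephalon, with 8 of 9 above that mean; over all 7987 genes it was -0.06. It was -0.44 in the subventricular zone, -0.60 in the bulb and -0.59 in the hippocampus, against -0.02, -0.02 and 0.01 over all genes. The mesencephalon median was 1.16 over the 6 metalloproteinases and 1.21 over the 3 inhibitors. In pairs of regions, 6 of 9 members were at least 2-fold higher in the mesencephalon than in the hippocampus (6.77% of all genes), 5 than in the subventricular zone (4.97%) and 4 than in the bulb (6.46%). These 3 pairs share the mesencephalon array.

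Most members differed widely between regions. The highest region was at least 2-fold above the lowest for 8 of 9 members, where 31% of all genes were, and at least 4-fold for 5 of 9, against 9.03%. These shares too are of members chosen with earlier results known, so they are descriptions only. The 5 were Mmp2, Mmp3, Mmp9, Mmp13 and Timp1. Mmp14 was the even member, with a range of 1.60-fold that lay at percentile 49.4 of all genes.

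**Figure D2:**
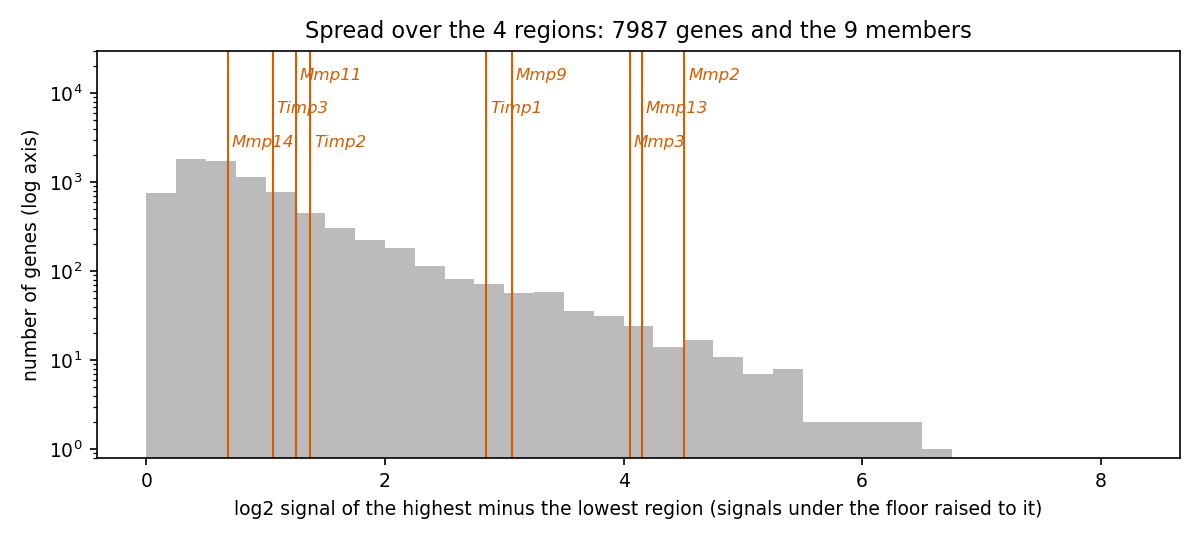
Log2 difference between the highest and the lowest region for the 7987 genes with any array above the floor (grey bars, number of genes on a log axis), with the 9 members as orange lines. Mmp2, Mmp13, Mmp3, Mmp9 and Timp1 lie in the right tail past 2, while Mmp14 lies among the bulk of genes.

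Mmp2, gelatinase A, is a secreted enzyme that cuts denatured collagen and basement membrane collagen and is made constitutively by many mesenchymal cells. Its signal was 3511 in the bulb, 2613 in the mesencephalon, 1301 in the hippocampus but 154 in the subventricular zone. The subventricular zone was thus 8.4-fold below the hippocampus, the next lowest region. The bulb and the mesencephalon, 1.34-fold apart, were not separated, and the hippocampus lay 2.01-fold below the latter. The other Mmp2 probe set read 2961, 1999, 1074 and 109 in the same order, and their profiles nowhere differed by more than 0.08 on the log2 scale. Without the mesencephalon array Mmp2 would be called higher in the bulb (log2 gap 1.43). Without the hippocampus array its distance in the subventricular zone was -4.08, against -3.08 with all arrays, and without the subventricular zone array Mmp2 would be called lower in the hippocampus.

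Mmp9, gelatinase B, shares the gelatin-binding repeats of Mmp2 but is an inducible enzyme best known from neutrophils, macrophages and activated microglia. It was above the floor in the hippocampus only, where its probe sets read 1021 and 895. The first of these read 34.7 in the subventricular zone, 19.7 in the bulb and 6 in the mesencephalon, and the second 81.6, 33.3 and 48.5. The hippocampus was therefore at least 8.4-fold above every other region by the first probe set and at least 7.3-fold by the second. No order can be read among the other 3 regions, all under the floor.

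Mmp13, the main interstitial collagenase of rodents, cuts fibrillar collagen and is induced by interleukins and other inflammatory signals. Its single probe set read 2174 in the mesencephalon, and 108 in the bulb, 82.6 in the hippocampus, then 18.5 in the subventricular zone, all under the floor. The mesencephalon was at least 17.8-fold above each of them. Among all genes the range of Mmp13 lay at percentile 99.1 and that of Mmp2 at 99.4.

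The 3 patterns differed. Mmp2 was high in all but the subventricular zone, Mmp9 was high in the hippocampus alone, and Mmp13 in the mesencephalon alone, among these 4 arrays. By the root mean square difference of their log2 profiles, each centred on its own mean over the 4 arrays, none lay near another. It was 1.98 between Mmp2 and Mmp13, 2.15 between Mmp2 and Mmp9 and 2.57 between Mmp9 and Mmp13. In nearness to Mmp2, Mmp13 was at place 6560 and Mmp9 at place 7277 of 7986 genes. In nearness to Mmp9, Mmp13 was at place 7952.

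**Figure D3:**
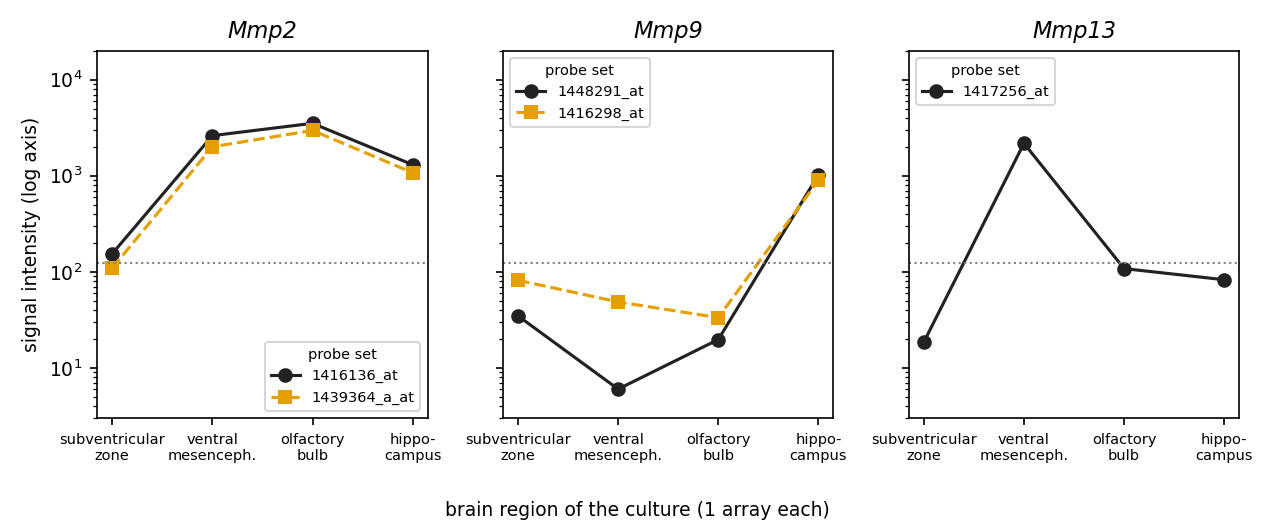
Signal intensity (log axis) of every probe set of Mmp2, Mmp9 and Mmp13 in the 4 cultures, 1 array each, with the floor of 122.1 dotted; lines join the points of a probe set and imply no order of regions. Mmp2 drops to 154 and 109 in the subventricular zone only, Mmp9 stands above the floor in the hippocampus only, and Mmp13 in the mesencephalon only.

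The genes with the nearest profile, by the same measure over 4 arrays, differed between the 3. Nearest to Mmp2 were Ifitm1, an interferon-inducible membrane protein (0.19), the transcription factor Zic1 (0.28), the ribonuclease Rnase4 (0.32), the membrane protein Itm2a (0.37) and the matrix protein fibulin 1, Fbln1 (0.44). Nearest to Mmp9 were Lrrc23 (0.04), 1700094D03Rik (0.06), the histidine-degrading enzyme Hal (0.06), the haematopoietic transcription factor Myb (0.08) and the hyaluronan-binding protein gene Itih3 (0.11). Nearest to Mmp13 were the granzyme Gzme (0.15), Crct1 (0.21), the complement regulator C4bp (0.24) and the chemokines Cxcl5 (0.31) and Ccl8 (0.39). The profiles around Mmp9 are set by a single array above the floor, and those around Mmp13 largely so. The nearest member to Mmp13 was Timp1, at 0.94 and place 33 of 7986.

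Mmp3, stromelysin 1, has a wide range of matrix substrates and can activate other metalloproteinase precursors, Mmp9 among them. Its signal was 2981 in the mesencephalon, 1441 in the subventricular zone, 305 in the bulb and 179.8 in the hippocampus. The mesencephalon was 2.07-fold above the subventricular zone, just past the limit of the call, and each step down was wider than 1.38-fold. Unlike Mmp13, Mmp3 was well above the floor in the subventricular zone, 4.7-fold above the bulb. The hippocampus, where Mmp9 was high, had the lowest Mmp3 signal. Without the subventricular zone array, the log2 gap of Mmp3 in the mesencephalon was 3.29 in place of 1.05. Without the mesencephalon array it would be called higher in the subventricular zone, without the hippocampus array lower in the bulb, and without the bulb array lower in the hippocampus (log2 gap -3.00).

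Mmp3 and Mmp13 lie in the same gene cluster on chromosome 9, in which the RefSeq gene table has 10 metalloproteinase genes in the order Mmp13, Mmp12, Mmp1b, Mmp3, Mmp1a, Mmp10, Mmp8, Mmp27, Mmp20 and Mmp7. Mmp27 was not analysed here. Of the other 9, only Mmp13, Mmp12 and Mmp3 were above the floor on any array. Mmp12, the macrophage elastase, read 402 in the hippocampus and 356.5 in the bulb, against 25.3 in the mesencephalon and 20.2 in the subventricular zone. Mmp12 thus lay under the floor on both arrays where Mmp3 was highest, although it sits between Mmp13 and Mmp3. The signals of Mmp1a, Mmp1b, Mmp7, Mmp8, Mmp10 and Mmp20 ran from 0.4 to 29.5. No order can be read among values this far under the floor.

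The promoters of the 3 genes called higher in the mesencephalon are shown because these members were high together. The 150 bases before the RefSeq transcription start (build GRCm38.p6) are printed 5′ to 3′ along the gene, with matches to the AP-1 motif TGANTCA and the TATA box TATAAA in capitals.
Mmp13, chr9:7272364-7272513, plus strand: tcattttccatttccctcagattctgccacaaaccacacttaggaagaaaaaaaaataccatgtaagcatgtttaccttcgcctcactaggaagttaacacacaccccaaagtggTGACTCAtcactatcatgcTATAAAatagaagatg
Mmp3, chr9:7445672-7445821, plus strand: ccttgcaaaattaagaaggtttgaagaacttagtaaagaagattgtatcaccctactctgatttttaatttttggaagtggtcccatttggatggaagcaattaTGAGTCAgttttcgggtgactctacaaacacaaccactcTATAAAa
Timp1, chrX:20870016-20870165, plus strand: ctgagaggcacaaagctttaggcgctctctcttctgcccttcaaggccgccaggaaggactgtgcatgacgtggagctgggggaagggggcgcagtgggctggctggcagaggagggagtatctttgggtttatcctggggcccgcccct
All motifs were searched on both strands in windows of 300 bases, from 250 before to 50 after the start. The Mmp13 promoter holds an AP-1 match from -35 to -29 and a TATA box from -16 to -11. That of Mmp3 holds an AP-1 match from -46 to -40 and a TATA box from -7 to -2. Of all 32851 promoters in the table, 7.81% hold the AP-1 motif and 13.6% the TATA box. The promoters of Timp1, Timp2, Timp3, Mmp11 and Mmp14 held neither set of letters in this window, and those of Mmp2 and Mmp9 were not analysed here. The 2 promoters with these motifs were poor in CpG, with 1 each in 300 bases, where the median over all promoters was 7 and Timp1 had 8, Mmp14 10, Mmp11 19, Timp3 24 and Timp2 25. Of the other motifs searched, PEA3 (AGGAAG, in 35.4% of all promoters) was found in Mmp3, Mmp13, Mmp14, Timp1 and Timp3, and RUNX (TGTGGT, 16.8%) in Mmp13 and Mmp14. The GC box (GGGCGG, 35.7%) and NF-kB (GGGNNNNNCC, 50.8%) were found in Mmp11, Mmp14 and the 3 inhibitors, with NF-kB matches that overlap each other or a GC box in Timp1 and Timp3, and on both strands at the same place in Timp2. The STAT motif (TTCNNNGAA, 8.30%) was found in none of the 7. A sequence match is a description of these windows and does not show that a factor is bound.

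AP-1 factors and their cytokine inducers were measured on the same arrays. Of the 22 AP-1, ETS, RUNX, NF-kB and related factors above the floor on at least 1 array, none was called in the mesencephalon or the subventricular zone. Their median log2 difference from the mean of the other regions was 0.59 in the mesencephalon and 0.63 in the subventricular zone, against -0.59 in the bulb and -0.48 in the hippocampus. Fos, an AP-1 subunit, read 6501 in the mesencephalon, 6405 in the subventricular zone, 4033.5 in the bulb and 2852 in the hippocampus. The AP-1 subunit Fosl1 read 1188 and 662 in the first pair, and 28.9 and 43.3, under the floor, in the bulb and the hippocampus. Jund instead was highest in the bulb, at 3580.5. A factor high in both the mesencephalon and the subventricular zone is not called higher in either by the rule used. Called in this list were Cebpd, lower in the bulb (2.7-fold), and the ETS factors Ets1, lower (2.1-fold), and Ets2, higher (2.0-fold), in the hippocampus. Each was 1 of 22, against 1.55% of all genes lower in the bulb, and 0.488% lower and 2.49% higher in the hippocampus. Of 21 inducing cytokines, receptors and related genes, 3 were called higher in the mesencephalon. These were interleukin 6 (Il6, 8.5-fold), the prostaglandin synthase Ptgs2 (5.9-fold) and interleukin 33 (Il33, 5.3-fold). Ptgs2 is an enzyme, neither a cytokine nor a receptor. That was 3 of 21, against 1.57% of all genes called higher there, and the list median was 0.49. Interleukin 1 was under the floor on every array, as Il1a (0.5 to 16.7) and Il1b (16.7 to 50.4). Tumour necrosis factor, Tnf, read 263 in the hippocampus and 96.8, 33.8 and 2.5 in the bulb, the subventricular zone and the mesencephalon, so at least 2.2-fold higher in the culture that was also high in Mmp9. Il6ra was called higher in the subventricular zone, where 1.28% of all genes were, and Tnf in the hippocampus, where 2.49% were. Egfr was called higher and Tgfb3 (3.5-fold) and Hbegf lower in the bulb, where 1.87% of all genes were called higher and 1.55% lower. Their part in the members' pattern was not tested.

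Mmp11, stromelysin 3, is a stromal enzyme activated inside the cell by furin. It was weak but above the floor on all 4 arrays, at 332 in the mesencephalon, 247 in the hippocampus, 222 in the subventricular zone and 139.5 in the bulb. The first 3 regions were not separated from their neighbours, and the bulb lay 1.59-fold below the subventricular zone. Mmp11 was 2.38-fold higher in the mesencephalon than in the bulb, and it was called in no region.

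Mmp14, a membrane-anchored enzyme also activated by furin, is the main activator of the Mmp2 precursor at the cell surface. It read 3809 in the bulb, 3284 in the mesencephalon, 2678.5 in the hippocampus, then 2375 in the subventricular zone, with the subventricular zone lowest, as for Mmp2, but over a much narrower range. None of its neighbouring regions was separated. Its other probe set read 1146 in the mesencephalon, 1068 in the bulb, 987 in the hippocampus, then 739 in the subventricular zone. Both probe sets placed the subventricular zone lowest, by 1.60-fold and 1.55-fold against the highest region.

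Timp1 is the inducible inhibitor, known to rise in reactive astrocytes, and binds the precursor of Mmp9. Its signal was 8024 in the mesencephalon, 2515 in the subventricular zone, 1864 in the bulb and 1114 in the hippocampus. The mesencephalon was 3.2-fold above the subventricular zone, which was not separated from the bulb, and the hippocampus lay 1.67-fold below the bulb. Like Mmp3, Timp1 was highest in the mesencephalon and lowest in the hippocampus, over a range of 7.2-fold against 16.6-fold. The hippocampus therefore held the highest signal of Mmp9 and the lowest of Timp1 among the 4 cultures. Without the bulb array Timp1 would be called lower in the hippocampus (log2 gap -1.18).

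Timp2 inhibits most metalloproteinases and also bridges Mmp14 to the Mmp2 precursor during its activation. Its leading probe set read 11938 in the mesencephalon, 6379 in the bulb, 4672 in the hippocampus, then 4608 in the subventricular zone. The gap of the mesencephalon, 1.87-fold, fell short of the 2-fold limit, and the other 3 regions were not separated from their neighbours. Of its 6 probe sets, 5 were above the floor, and 4 of these put the mesencephalon highest, with gaps of 1.15-fold to 1.87-fold. The remaining one, of the type that can match several transcripts, put the bulb highest (5405 against 4876). The profiles of these 5 differed by up to 0.54 on the log2 scale. Without the bulb array, Timp2 would be called higher in the mesencephalon (log2 gap 1.35).

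Timp3 binds to the extracellular matrix and inhibits ADAM and ADAMTS proteases as well as metalloproteinases. It read 5914 in the mesencephalon, 4965 in the subventricular zone, 4524 in the bulb and 2837.5 in the hippocampus. By this leading probe set the first 3 regions were not separated from their neighbours, and the hippocampus lay 1.59-fold below the bulb. By the others the hippocampus was 1.45-fold, 1.31-fold and 1.07-fold below the next lowest region, so not separated by the last pair. All 4 Timp3 probe sets placed the mesencephalon highest and the hippocampus lowest, with ranges of 1.63-fold to 2.22-fold. Their profiles differed by up to 0.52 on the log2 scale.

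**Figure D4:**
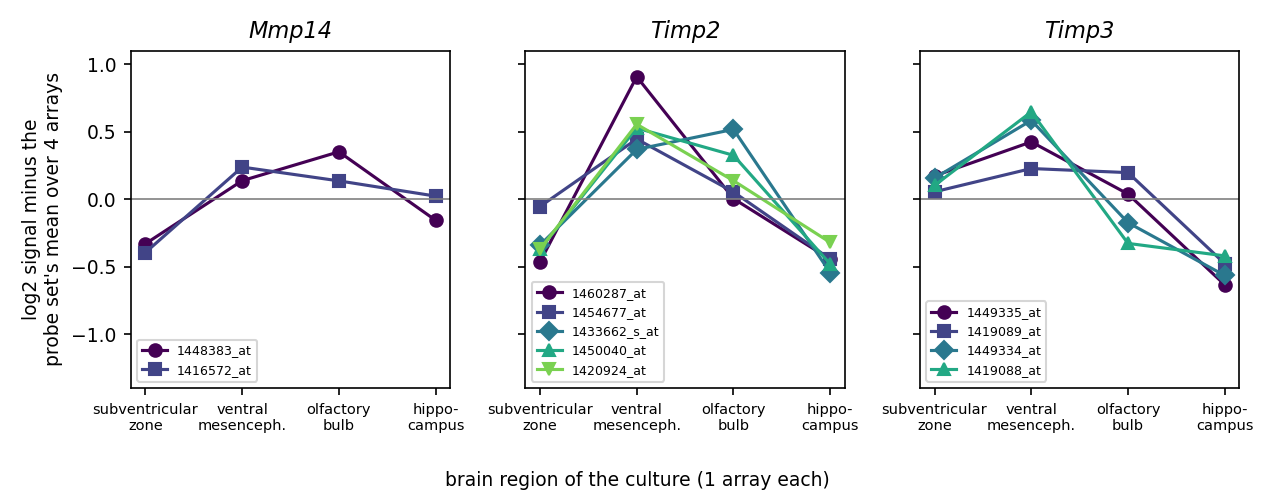
Log2 signal minus the probe set's own mean over the 4 arrays for the probe sets of Mmp14, Timp2 and Timp3 above the floor on all arrays; lines join the points of a probe set. The Timp3 probe sets share their highest region, the mesencephalon, and their lowest, the hippocampus, while those of Timp2 and Mmp14 differ in which of the mesencephalon and the bulb is highest.

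Other metalloproteinases were mostly under the floor. Of 17 further family members, 12 were on the arrays and 4 were above the floor on at least 1, against 7987 of 12393 for all genes. Besides Mmp12 these were Mmp16, Mmp19 and Mmp23. Mmp16, a membrane-type enzyme, read 1843.5 in the bulb, 391 in the mesencephalon, 142 in the hippocampus, then 124 in the subventricular zone. It was 4.7-fold higher in the bulb, the only one of the 12 that was called, and its other probe set lay on the same side. That was 1 of the 4 above the floor, against 1.87% of all genes called higher in the bulb. Mmp23 read 113 in the subventricular zone and 221 to 243 elsewhere, and Mmp19 was above the floor in the mesencephalon only, at 148.

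Among 7 further inhibitors and related proteins, all on the arrays and 5 above the floor, 3 were called. Reck, a membrane-anchored inhibitor of several metalloproteinases, read 80.8 in the subventricular zone and 362 to 398 elsewhere, so it was at least 3.0-fold lower there. Timp4, the fourth tissue inhibitor, was at least 2.1-fold lower in the bulb, at 15.9 against 258 to 298. Pcolce was 3.4-fold lower in the subventricular zone, at 419 against 1431 in the hippocampus, the next lowest region. It read 7030.2 in the bulb. Pcolce is an enhancer of procollagen processing that carries a TIMP-like domain, not a protease inhibitor. The subventricular zone, lowest for Mmp2 and Mmp14, was thus also lowest for Reck and Pcolce, so 2 of 5 were called lower there against 1.01% of all genes, and 1 of 5 in the bulb against 1.55%. With lists this short a single gene moves the share widely.

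In the related ADAM and ADAMTS proteases, 4 of 12 genes above the floor were called. Adamts10 (3.7-fold), Adam12 (2.7-fold) and Adamts15 (2.7-fold) were higher in the bulb, Adam12 was also at least 2.7-fold lower in the subventricular zone, and the aggrecan-cutting Adamts5 was 2.3-fold higher in the mesencephalon. Of these 12, 3 were thus called higher in the bulb against 1.87% of all genes, 1 higher in the mesencephalon against 1.57% and 1 lower in the subventricular zone against 1.01%. Of 17 genes of plasminogen and precursor activation, 3 were called: the plasminogen activator Plat was 2.1-fold lower in the subventricular zone, and in the bulb the thrombin receptor F2r was 2.8-fold lower and the kallikrein Klk8 at least 2.2-fold higher. Each of these is 1 gene of 17, where 1.01% of all genes were called lower in the first culture and 1.55% lower and 1.87% higher in the second. Of 14 surface partners, Thbs2, which binds Mmp2 and leads to its uptake, was 2.8-fold higher in the mesencephalon (4982). Lipocalin 2, Lcn2, known as a partner of MMP9 in humans, was 9.1-fold lower in the bulb than in the next lowest region, the hippocampus. Cd44, a hyaluronan receptor that can dock metalloproteinases, was 2.6-fold lower in the bulb, and the collagen receptor Mrc2 was 2.4-fold higher there. The bulb thus had 2 of 14 called lower and 1 higher, and the mesencephalon 1 higher, against the same 1.55%, 1.87% and 1.57%.

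Among matrix proteins that these enzymes can cut, several were low in the subventricular zone. Of 26 above the floor on at least 1 array, 6 were called lower there, 2 in the mesencephalon, 1 in the bulb and none in the hippocampus, against 1.01%, 0.563%, 1.55% and 0.488% of all genes. The widest gaps were in Col3a1, a fibrillar collagen (29.9-fold), decorin, Dcn (at least 19.0-fold), Lamb1, a laminin chain (at least 6.1-fold), and Col6a2 (4.9-fold). Called higher were Nid1, nidogen 1 (3.1-fold), and the collagen VI chains Col6a2 (2.9-fold) and Col6a1 (2.0-fold) in the bulb, and the proteoglycan versican, Vcan (2.4-fold), in the mesencephalon, so 3 and 1 of 26 against 1.87% and 1.57% of all genes. The list median in the subventricular zone was -0.16, and it was 0.65 in the mesencephalon and 0.50 in the bulb. Col3a1 was at 176 in the subventricular zone, 5270.5 in the hippocampus, 9394 in the mesencephalon and 10549 in the bulb, so lowest in the subventricular zone, as Mmp2 was.

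Markers of the cell types that can make these enzymes differed between the cultures. Of 16 astrocyte markers, 13 to 15 were above the floor on each array, with the glutamate transporter Slc1a2 under it on all 4. Gfap, the astrocyte filament protein, read 10027 in the hippocampus, 3800.2 in the bulb, 3112 in the subventricular zone, then 1007 in the mesencephalon. There it was called lower (3.1-fold), as was the glycolytic enzyme Aldoc (2.8-fold, at 564). Aldh1l1 read 5106 in the subventricular zone, 1727 in the hippocampus, 1711 in the mesencephalon and 311 in the bulb. Gja1 was lowest in the subventricular zone (2505, against 5988 in the mesencephalon). Called lower were 2 of 15 in the mesencephalon, 2 in the bulb and 1 in the subventricular zone, against 0.563%, 1.55% and 1.01%. Called higher were 3 in the hippocampus, 2 in the subventricular zone and 1 in the bulb, against 2.49%, 1.28% and 1.87% of all genes. The summed signal of the astrocyte list was lowest in the mesencephalon (20556.5), where Mmp3, Mmp13 and Timp1 were highest, against 27013 in the bulb, then 43477 in the subventricular zone, with the hippocampus at 51312. The list's median log2 difference from the mean of the other regions was -0.79 in the mesencephalon and -0.92 in the bulb. The part of the astrocyte content in the mesencephalon results was not tested. A summed signal adds probe sets of unlike response, so sums are compared only between regions within a list. Of 18 fibroblast and meningeal markers, 4 of which are also in the matrix list (Col1a1, Col1a2, Col3a1 and Dcn), 9 were above the floor in the subventricular zone and 15 to 17 elsewhere. Their summed signal was 12354 in the subventricular zone, 28568 in the hippocampus, 46513 in the mesencephalon and 73683 in the bulb, so lowest in the subventricular zone, as Mmp2 was. In the subventricular zone 8 of the 17 above the floor on at least 1 array were called lower, against 1.01% of all genes. The list median there was -2.31. Islr, however, was called higher there (2.2-fold, at 5941), 1 of 17 against 1.28%, and made up a large part of that culture's sum. In the bulb 4 were called higher, Ptgds (6.5-fold), Postn (4.1-fold), Igf2 (3.0-fold) and Crabp2 (2.2-fold), with a list median of 2.05. That was 4 of 17, against 1.87% of all genes. In the mesencephalon the proteoglycan lumican, Lum, was 2.8-fold higher (1 of 17 against 1.57%), with a list median of 0.91. In the hippocampus Pdgfra was 2.8-fold higher and Twist1 at least 2.1-fold lower, with a list median of 0.10. Each was 1 of 17, against 2.49% of all genes called higher and 0.488% lower there. Col1a1 and Col1a2, the chains of type I collagen, were above the floor on all 4 arrays, the lowest at 1868 and 2618 in the subventricular zone. The part of these cells in the Mmp2 result was not tested.

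Of 20 microglia and macrophage markers, 19 were above the floor in the hippocampus, 18 in the bulb, 1 in the mesencephalon and 2 in the subventricular zone. Their summed signal was 43700.2 in the hippocampus and 38527 in the bulb, against 636 and 813 in the subventricular zone and the mesencephalon. The receptor Csf1r read 5099 and 4073 in the first pair, and 55.6 and 90.9 in the second. Aif1 read 390 and 361 in the first pair, and 17.4 and 8.5 in the second. Mmp12 was above the floor in the same pair of cultures, whereas Mmp9 was above it in the hippocampus and at 19.7 and 33.3 in the bulb. Of 9 neutrophil markers, S100a8 alone was above the floor, at 259 in the hippocampus, and S100a9 was at 10.8 there; Mmp8, the neutrophil collagenase, was at 14.2. The part of either cell type in the Mmp9 result was not tested. Mmp13 and Mmp3 were highest in the culture with a single microglial marker above the floor, Cd53 at 320.1. The part of microglia in the Mmp13 and Mmp3 results was not tested either.

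**Figure D5:**
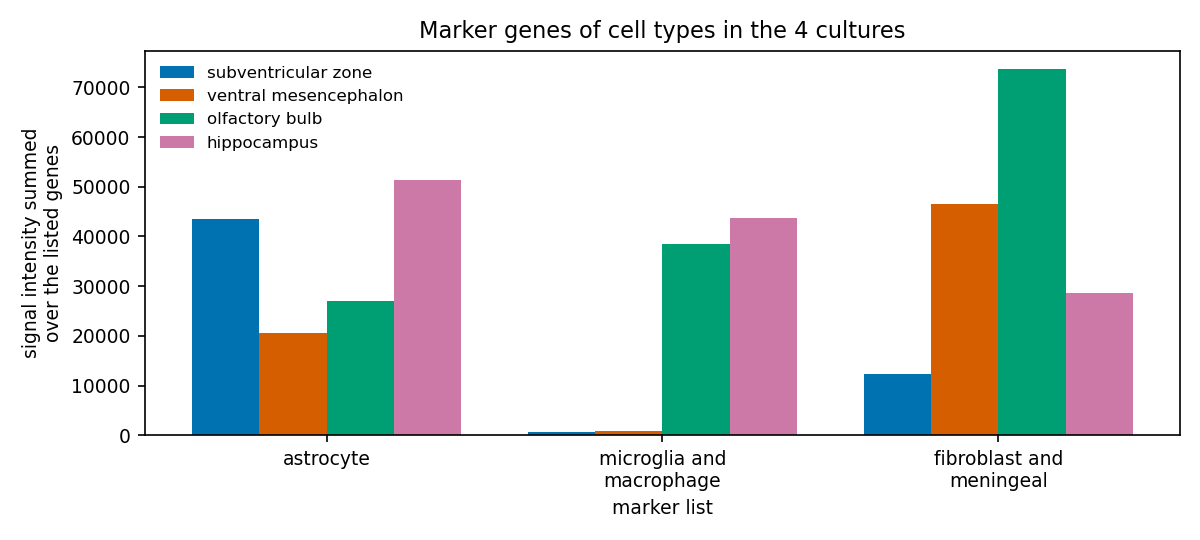
Signal intensity summed over the astrocyte (16 genes), microglia and macrophage (20 genes) and fibroblast and meningeal (18 genes) marker lists in the 4 cultures, 1 array each. The fibroblast sum is lowest in the subventricular zone (12354) and the microglial sum is high in the hippocampus and the bulb but low in the other 2 cultures.

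Markers of further cell types were also present and also differed between the cultures. Of 11 endothelial markers 2 were above the floor, while Pecam1 was at 1 to 6.4 throughout. Cdh5, 1 of these 2, was at least 2.1-fold higher in the mesencephalon (254.5), where 1.57% of all genes were called higher. Of 11 pericyte and smooth muscle markers 6 were above the floor, with smooth muscle actin, Acta2, at 9301 to 11576 and the receptor Pdgfrb at 766 in the subventricular zone and 1254 to 2438 elsewhere. In that list Rgs5 was 4.0-fold higher and Cnn1 5.9-fold lower in the bulb, each 1 of 6, against 1.87% and 1.55% of all genes.

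Of 8 ensheathing and Schwann cell markers on the array 7 passed the floor in 1 or more cultures. The adhesion molecule L1cam (at least 3.8-fold), the neurotrophin receptor Ngfr (4.2-fold) and the transcription factor Sox10 (at least 2.9-fold) were higher in the bulb. The neuropeptide Npy was 2.2-fold higher in the hippocampus. That was 3 and 1 of 7, against 1.87% and 2.49% of all genes. Of 12 oligodendrocyte lineage markers 7 were above the floor, Sox10 and Pdgfra among them. In the bulb 2 of 7 were called higher and 1 lower, against 1.87% and 1.55% of all genes. In the hippocampus 2 were called higher, against 2.49%. Sox10 in the bulb and Pdgfra in the hippocampus are among these calls and were already counted in the ensheathing and fibroblast lists. Cldn11, a tight junction protein of myelin, was 9.5-fold higher in the bulb (3051.5), the myelin enzyme Cnp was 2.0-fold higher in the hippocampus (3286), and the transcription factor Olig1 read 3805 in the subventricular zone but was 3.6-fold lower in the bulb (171), while the myelin gene Mog was under the floor on all arrays. Of 12 neuronal markers 5 were above the floor, and 4 of them were called higher in the subventricular zone, where 1.28% of all genes were: Gad1 (3.4-fold, at 671), Stmn2 (2.6-fold, at 3465), Gap43 (2.3-fold, at 400.0) and Uchl1 (2.2-fold, at 1491). The neuronal list median was 2.05 there, Stmn2 was also 2.4-fold lower in the bulb, and the neuronal nuclear protein gene Rbfox3 was under the floor on all arrays. The part of these cells in the members' patterns was not tested.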

How the data were processed

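The 4 samples, 1 per region, were measured on Affymetrix arrays. The deposited table holds linear signal intensity values of 22690 probe sets per array, made with GCOS 1.4 per the submitters' processing notes; no algorithm or setting is named in these sources. The 2% trimmed means were 400.1 to 400.2, so the values were used without further scaling. Global scaling of this kind makes each gene relative to its culture's total. The number of arrays limits precision.

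Of the probe sets, 20380 had 1 gene symbol in the platform annotation, 691 had several, 1555 had none listed and 64 were controls; 20351 were matched by gene identifier to a RefSeq gene table (GRCm38.p6). For each gene the probe set of highest mean log2 signal was taken, after raising values to the floor at the 50th percentile. Calls (2-fold) and medians were computed in Python 3.11.15 with pandas 2.3.3, and the call rule was tested on simulated data. Promoters came from RefSeq (GRCm38.p6); 7 of the 9 members matched. The members and lists were chosen with earlier results of these data known. Named are all members, up to 4 called genes with the widest gap per pathway list (others only to complete a count, after their values were seen), the first 2 markers of the main cell type lists and the 5 nearest profiles. The 13 alternatives changed the floor, pseudocount, probe sets, scaling, limit or regions compared.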

Additional observations from a re-analysis of the deposited data

How the results depend on the processing

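With 1 array per region there is no spread between cultures, and signals under the floor carry no order. No paired analysis was possible because each region has a single sample, all numbered as the first replicate. The calls of Mmp13 and Timp1 (higher in the mesencephalon), Mmp9 (higher in the hippocampus) and Mmp2 (lower in the subventricular zone) kept their direction and stayed at least 2-fold under every alternative that kept their region; a floor at the 70th percentile gave log2 gaps of 2.59 for Mmp13 and -1.85 for Mmp2. Mmp3 stayed called in the mesencephalon under all alternatives with that region but the limit of 3-fold. Mmp3, Mmp13 and Timp1 have 1 probe set each, so the alternatives that change the probe set could not alter their values and do not test them. With the floor at the 30th percentile or a pseudocount of 16 in place of a floor, 2 members were called lower in the subventricular zone, with Mmp13 added (log2 gaps -1.71 and -1.51 in place of 0.00), and Mmp9, level at the floor in 3 regions in the main setting, was read by its other probe set, which put the mesencephalon 0.54 and 0.39 above the bulb, then the lowest. With the limit at 1.5-fold, 1 member was called lower in the bulb and 3 in the hippocampus, and with median scaling 1 (Mmp3) in the hippocampus. Median scaling shifted the hippocampus by -0.17 over all genes. The share of all genes called was computed in the main setting only, so the counts under the alternatives have no background. Leaving out a region moved the members called higher between 0 and 1 in the subventricular zone, 3 and 5 in the mesencephalon and 0 and 1 in the bulb, and those called lower between 0 and 1 in the bulb and 0 and 2 in the hippocampus. With a region left out, the Mmp2 gap of the bulb ran from 0.43 to 1.43, and it was 0.37 with quantile normalization. Small gaps turned: Mmp14 was not highest in the bulb by its second probe set (-0.10) nor lowest in the subventricular zone with median scaling (0.058), and Timp2 was not lowest in the subventricular zone by the mean of its probe sets (0.11), the second probe set (0.39) or median scaling (0.21).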

Other observations

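Both Timp1 and Timp3 lie within the span of a synapsin gene in the RefSeq gene table, Timp1 within Syn1 on chromosome X and Timp3 within Syn3 on chromosome 10. Synapsins are neuronal vesicle proteins. Syn1 read 133 in the subventricular zone, just above the floor, and 111 in the hippocampus, 79.1 in the mesencephalon and 73.1 in the bulb, all under it. Syn1 was thus under the floor in the mesencephalon, where Timp1 was highest, and no order of its regions can be read. Syn3 was under the floor on all 4 arrays, at 3.3 to 24.8.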
